A study of Mus musculus with 12 samples.

Results

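The insulin and insulin-like growth factor (IGF) genes of the mouse brain were examined on 12 one-colour Agilent arrays of models of Alzheimer's disease (AD). The 10 genes described were taken by symbol: the growth factors Igf1 and Igf2, the receptors Insr and Igf1r, the binding proteins Igfbp2 and Igfbp5, the adaptors Irs1 and Irs2, the protease Ide and the glucose transporter Slc2a4. They were found through the accession of each probe. The 10 genes were measured by 17 of the 39429 probes of the array and were 10 of the 19648 genes that passed the filter on dim probes. All 17 probes passed that filter, and all 17 were well above background on each of the 12 arrays. Igf1 had 4 probes, Insr 3, Igfbp2 and Irs1 2 each, and the other genes 1 each.

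Insulin, IGF1 and IGF2 are small secreted proteins that bind the closely related receptors encoded by Insr and Igf1r. The receptors phosphorylate the adaptors IRS1 and IRS2, which recruit PI3K, and PI3K in turn activates AKT, whose targets include mTOR, FOXO factors and GSK3. Binding proteins such as IGFBP2 and IGFBP5 hold IGFs in the extracellular fluid, the insulin-degrading enzyme encoded by Ide cleaves insulin and also amyloid-β (Aβ), and GLUT4, encoded by Slc2a4, is the glucose transporter that insulin moves to the cell surface in muscle and fat. In adult brain, Igf2 and Igfbp2 are made largely by the meninges and the choroid plexus, the epithelium that secretes cerebrospinal fluid, whereas Igf1 is made by some neurons and by activated microglia.

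Each array carried RNA pooled from 3 animals, and each condition had 1 array. The 4 cortex arrays held prefrontal cortex of untreated male mice of strain C57BL/6, at ages of 1.5, 4, 17, and 22 months. Hippocampus came from 3 transgenic lines on a C57BL/6 background, one with mutated human NCSTN (10 months), one with wild-type human MAPT (12 months), and 5×FAD, a model of amyloid deposition with mutated human APP (6 months). Hippocampus also came from male ICR mice, 7 weeks old when purchased, in 5 groups. Into the cerebral ventricles went 5 μM Aβ, 10 μM Aβ, 2.5 mg/kg streptozotocin, or 3 mg/kg streptozotocin, each 14 days before dissection. The last group had 1 mg/kg of scopolamine, which blocks muscarinic acetylcholine receptors, by intraperitoneal injection 30 min before it. Streptozotocin is a glucose analogue that is toxic to insulin-producing cells and, given into the ventricles, serves as a model of impaired insulin signalling in brain. All mice were fasted overnight. The promoters that drive the transgenes are not given in the sources used here, and vehicle-injected and nontransgenic control arrays were not analysed here. The scopolamine mice had no ventricular injection, so the injection itself cannot be told apart from the agent when they are compared with the others.

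Several arrays stood apart from their labels or from their neighbours. The methods call all animals male, yet on the 3 transgenic arrays Xist, the RNA of the inactive X chromosome, had log2 signals of 9.20 to 9.58 and the Y-linked genes Ddx3y and Eif2s3y were not well above background. None of the remaining 9 arrays had Xist well above background, whereas Ddx3y had log2 signals of 10.36 to 10.91, and Eif2s3y 9.21 to 10.51. The labelled sex of the transgenic arrays therefore goes against these 3 genes. In any comparison of transgenic with ICR hippocampus, sex, strain, age, transgene, treatment, and any array batch cannot be told apart. Ttr, the main transcript of choroid plexus, had log2 signals of 11.27 and 12.06 on the streptozotocin arrays against 17.33 to 17.41 on the other ICR arrays, and of 15.57 in 17-month cortex against 5.11 to 6.85 at the other ages. On the MAPT array the pituitary hormone gene Prl had a log2 signal of 12.35, against at most 5.54 on the other arrays. Summed over 6 cortical markers, the signal was 10313 to 13271 in cortex and 2590 to 4782 in hippocampus, and summed over 7 hippocampal markers it was 7652 to 14869 and 23512 to 43006, so that each sum was higher in the arrays labelled with its region. Single markers overlapped, such as Fezf2, with a log2 signal of 10.95 on the MAPT array and 10.57 to 10.91 in cortex.

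**Figure D1:**
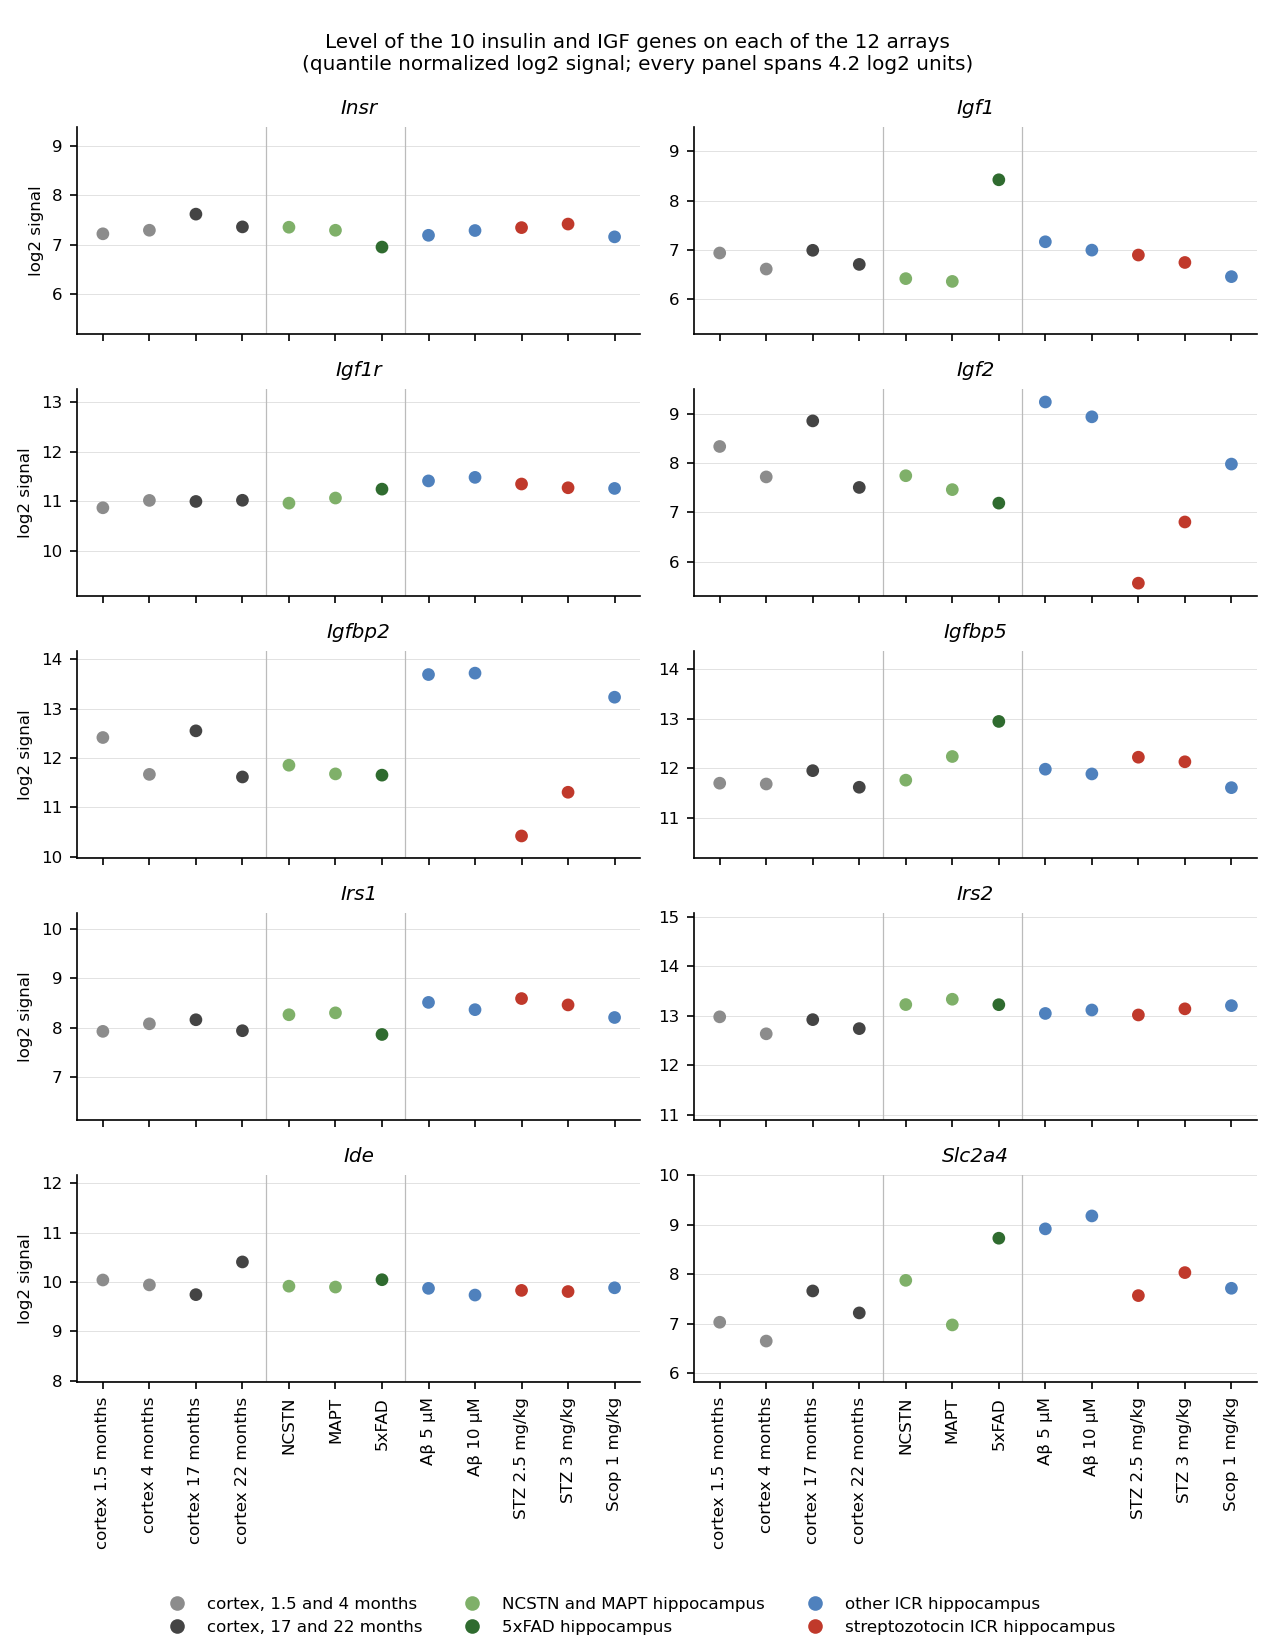
Quantile normalized log2 signal (vertical axis) of the 10 genes on each of the 12 arrays (horizontal axis), 1 point per array of RNA pooled from 3 animals, coloured by group. Every panel spans the same number of log2 units: Igf2 and Igfbp2 were lowest on the 2 streptozotocin arrays, Igf1 was highest on the 5×FAD array at 8.42, and Irs2, Igf1r, Insr, Ide, and Irs1 stayed within 0.73 log2 units.

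Levels are given as log2 of the quantile normalized signal, so that a difference of 1 is 2-fold. They were compared between arrays for 1 gene at a time, not between genes. Over the 12 arrays, Igf2 ranged most widely, 12.7-fold from its lowest to its highest array, followed by Igfbp2 (9.81-fold), Slc2a4 (5.78-fold), Igf1 (4.16-fold), and Igfbp5 (2.53-fold). Irs1, Irs2, Ide, Insr, and Igf1r ranged between 1.53-fold and 1.65-fold. The ligands, the binding proteins, and the glucose transporter therefore had a wider range than the receptors, the adaptors, and the protease.

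The first comparison asked how the 2 streptozotocin arrays differed from the 3 other ICR hippocampus arrays. Igf2 and Igfbp2 had the largest differences of the 10 genes, both lower with streptozotocin. The growth factor gene Igf2 (chr7:142650768-142666816 on GRCm38.p6) had log2 signals of 5.57 at 2.5 mg/kg and 6.81 at 3 mg/kg of streptozotocin, against 9.23 and 8.93 with 5 and 10 μM of Aβ and 7.98 with scopolamine. Both streptozotocin arrays lay below all 3 others, and the lower dose was the lower array. The difference of the means was -2.53 (SE 0.57), a 5.77-fold lower level. It was -1.73 with normexp, a model-based background correction of the median signals, -1.79 in the deposited matrix of processed values, -1.91 without 2.5 mg/kg of streptozotocin, and -3.15 without 3 mg/kg. Igfbp2, which encodes an IGF-binding protein abundant in cerebrospinal fluid, had log2 signals of 10.42 and 11.31 at 2.5 and 3 mg/kg of streptozotocin, 13.69 and 13.72 with 5 and 10 μM of Aβ, and 13.23 with scopolamine. Again the groups did not overlap and the lower dose was the lower array. The difference was -2.68 (SE 0.33), a 6.41-fold lower level, and its 2 probes gave -2.72 and -2.64.

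Neither gene passed an adjusted p of 0.05 in limma, in which arrays of different dose or agent stood in for replicates, so that the spread contains those differences. The adjusted p was 0.205 for Igf2 and 0.0789 for Igfbp2, adjusted over all 19648 genes. Igfbp2 passed the threshold under 4 of the alternative settings, with adjusted p between 0.0055 and 0.247 over all of them, and Igf2 under none, with adjusted p between 0.076 and 0.486. None of the 10 genes passed in the main analysis, where 0.774% of all genes did, and 2 of the 10 had an unadjusted p under 0.05, against 13.8% of all genes. Differences as large as that of Igf2 or larger were seen for 122 of the 19648 genes, and as large as that of Igfbp2 for 102. At least 2-fold lower were 2 of the 10 genes and 4.17% of all genes, and at least 2-fold higher none of the 10 and 1.67% of all genes.

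Because Igf2 and Igfbp2 moved together, the sequences around their transcription starts are shown, with CCAAT boxes (CCAAT) and GC boxes (GGGCGG) in capitals wherever either strand matches. The sequences are RefSeq windows of 300 bases on GRCm38.p6, printed 5′ to 3′ on the strand of the gene. The window of Igf2 is chr7:142657447-142657746 on the minus strand, 1 of 4 windows of this gene, that of Igfbp2 is chr1:72824230-72824529 on the plus strand, 1 of 2, and that of Igf1, which did not share their pattern, is chr10:87860861-87861160 on the plus strand.
Igf2: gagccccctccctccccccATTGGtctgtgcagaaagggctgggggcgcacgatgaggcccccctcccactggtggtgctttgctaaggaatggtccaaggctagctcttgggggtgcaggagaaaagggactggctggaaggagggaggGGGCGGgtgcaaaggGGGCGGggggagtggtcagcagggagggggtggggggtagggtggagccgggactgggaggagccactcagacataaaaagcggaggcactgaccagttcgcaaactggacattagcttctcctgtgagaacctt
Igfbp2: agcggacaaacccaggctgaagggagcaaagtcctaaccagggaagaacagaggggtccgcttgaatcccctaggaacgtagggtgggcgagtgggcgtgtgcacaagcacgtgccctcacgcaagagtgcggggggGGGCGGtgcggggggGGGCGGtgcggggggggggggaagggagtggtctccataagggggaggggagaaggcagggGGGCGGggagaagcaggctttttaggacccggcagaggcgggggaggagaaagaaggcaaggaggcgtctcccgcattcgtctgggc
Igf1: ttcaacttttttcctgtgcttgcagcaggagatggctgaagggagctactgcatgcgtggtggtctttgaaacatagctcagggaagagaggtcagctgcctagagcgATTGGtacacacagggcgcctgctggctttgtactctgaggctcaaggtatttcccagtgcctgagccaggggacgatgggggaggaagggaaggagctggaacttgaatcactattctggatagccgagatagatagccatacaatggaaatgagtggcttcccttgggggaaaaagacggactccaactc
The Igf2 window held 2 GC boxes and 1 CCAAT box, the Igfbp2 window held 3 GC boxes, and the Igf1 window held 1 CCAAT box and no GC box. Of all 32851 promoter windows, 35.7% held a GC box and 37.4% a CCAAT box on either strand. The other windows of Igf2 held 1, 0, and 0 GC boxes, and the other window of Igfbp2 held 0. Among the other members, the windows of Igf1r and Irs1 held 2 GC boxes each and that of Irs2 held 1. The streptozotocin and other ICR groups overlapped for all of Igf1r, Irs1, and Irs2. The windows of Igfbp5 and Ide held 0 GC boxes. The part of these motifs in the shared pattern was not tested. A TATA box (TATAAA), found in 13.6% of all windows, and the FOXO motif GTAAACA, found in 3.65%, matched in none of the 12 windows of the 8 genes that had one. The motifs did not overlap with each other in the printed windows, and which of the starts is used in these samples was not measured.

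Markers of the cells that make Igf2 and Igfbp2 were also lower on the streptozotocin arrays. All 12 choroid plexus markers were at least 2-fold lower with streptozotocin, all 12 had non-overlapping groups, and 10 of them passed an adjusted p of 0.05 in limma. Without scopolamine 0 passed, without 10 μM of Aβ 2, and without 5 μM of Aβ 4, and all 12 still did not overlap. The summed signal of these markers, most of it from Ttr, was 3697 and 5870 on the streptozotocin arrays and 189241 to 201390 on the other ICR arrays. Of the 12 markers, 8 were still well above background on both streptozotocin arrays, Ttr among them. The others, Folr1, Cldn2, Slc4a5, and Cldn1, were not on either of them, and Cldn1 was also not on the 10 μM Aβ array. All 11 markers of meningeal and perivascular fibroblasts were at least 2-fold lower too, but the groups of only 3 of them did not overlap and none passed the threshold. Their summed signal was 6303 and 21682 with streptozotocin at 2.5 and 3 mg/kg, and 19240 to 60556 on the other ICR arrays, where scopolamine was the lowest. All 11 were well above background on every array. The part of either cell type in the lower Igf2 and Igfbp2 was not tested. In RNA from whole tissue, fewer cells of a type in the dissected sample and less RNA per cell cannot be told apart. How much choroid plexus or meninges each dissection took in is not given in the sources used here.

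**Figure D2:**
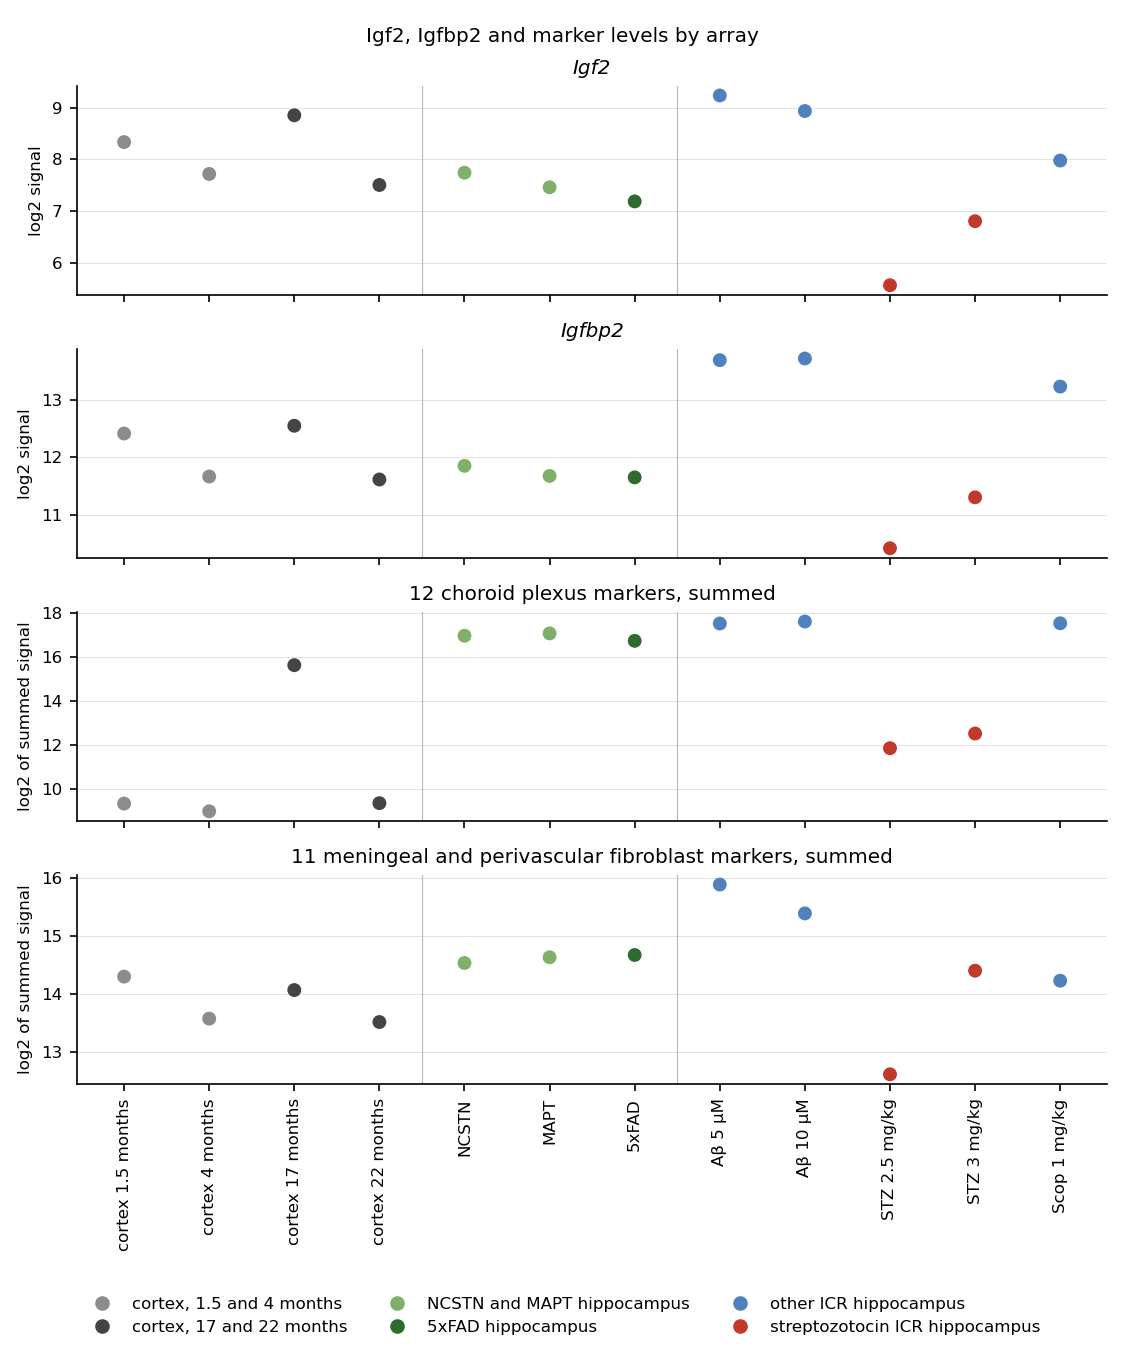
Log2 signal of Igf2 and Igfbp2 (upper panels) and log2 of the summed signal of 12 choroid plexus and 11 fibroblast markers (lower panels), 1 point per array. The 2 streptozotocin arrays were the lowest of the 12 for both genes, whereas the summed choroid plexus signal, though not every marker, was lower still in cortex at 1.5, 4, and 22 months.

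Across the other arrays, the levels of Igf2 and of choroid plexus markers did not share 1 order. In cortex at 1.5, 4, and 22 months the summed choroid plexus signal was 505 to 652, below both streptozotocin arrays, yet Igf2 had log2 signals of 8.33, 7.72, and 7.51 there and Igfbp2 12.41, 11.67, and 11.62, all above the streptozotocin arrays. On the 3 transgenic arrays the choroid plexus signal was 109499 to 138462, while Igf2 had log2 signals of 7.19 to 7.74 and Igfbp2 11.65 to 11.85. After the mean of each of the 3 strata (cortex, transgenic hippocampus, and ICR hippocampus) was subtracted, Igf2 correlated over the 12 arrays with r = 0.92 with the summed fibroblast signal and r = 0.82 with the summed choroid plexus signal, and Igfbp2 with r = 0.86 and r = 0.81. Igf2 and Igfbp2 correlated with r = 0.97 with each other, and with r = 0.94 without the 2 streptozotocin arrays. These values are a description of arrays that share normalization and, within a stratum, strain and region.

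The 2 insulin genes of the mouse, Ins1 and Ins2, differed in the same direction as Igf2. Ins1 had log2 signals of 4.86 and 4.97 on the streptozotocin arrays and 9.09 to 9.46 on the other ICR arrays. The difference was -4.38 (SE 0.14), a 20.9-fold lower level with an adjusted p of 0.0058 in limma. Ins2 had 7.13 and 7.25 against 9.66 to 9.89, a difference of -2.62 (SE 0.11) and a 6.15-fold lower level with an adjusted p of 0.0079. With normexp the differences were -2.80 for Ins1 and -1.94 for Ins2, and in the deposited matrix -3.16 and -1.95. Both calls were lost without the array of 10 μM Aβ (adjusted p of 0.0596 and 0.071) or of scopolamine (0.0556 and 0.0724). The 2 genes are near-identical copies, so their probes may share signal. In the transgenic hippocampus Ins1 had log2 signals of 5.98 to 6.60 and in cortex 3.73 to 4.88. In cortex it was well above background on only 1 of the 2 younger and 1 of the 2 older arrays. The summed signal of choroid plexus markers was also lower on all these arrays than with Aβ or scopolamine. It was 109499 to 138462 on the transgenic arrays, against 189241 to 201390 with Aβ or scopolamine. The part of those markers in these values was not tested.

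The other binding protein, Igfbp5, was on the other side. Its gene lies 5590 bases from Igfbp2 on chromosome 1. Igfbp5 had log2 signals of 12.22 and 12.13 at 2.5 and 3 mg/kg of streptozotocin, against 11.98 and 11.88 with Aβ and 11.61 with scopolamine. The groups did not overlap, and the difference of 0.35 (SE 0.14) had an adjusted p of 0.376. The insulin receptor Insr also had non-overlapping groups, with log2 signals of 7.35 and 7.42 with streptozotocin and 7.16 to 7.29 on the others. Its difference was 0.17 (SE 0.07, adjusted p of 0.404), and it was 0.08, 0.09, and 0.35 by its 3 probes. By the probes that gave 0.08 and 0.35 the groups overlapped. By the probe that gave 0.09 they were barely apart, the nearest values being 6.427 with streptozotocin and 6.425 on the others. Higher without overlap were thus 2 of the 10 genes, against 20.8% of all genes, and lower without overlap 2, against 14.7%.

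Slc2a4 had log2 signals of 7.57 and 8.03 with streptozotocin, 8.92 and 9.18 with 5 and 10 μM of Aβ, and 7.72 with scopolamine. Both Aβ arrays were high, and scopolamine lay between the streptozotocin arrays, so that the groups overlapped. The difference of -0.80 (SE 0.51) had an adjusted p of 0.536, and it was -1.25 without the scopolamine array. The probe of Slc2a4 was printed at 10 spots of each array, of which 8 to 10 were usable. Their SD within an array was 0.03 to 0.12 on the log2 scale, which says nothing of the spread between animals. Of 6 muscle markers, Ckm and Mylpf were not well above background on any array, whereas Acta1 was on all 12, Myh2 on 11, Myh1 on 10, and Tnnt3 on 6. With streptozotocin 4 of the 6 were higher without overlap, among them the dim Ckm and Mylpf, and the median difference of the 6 was 0.20. The summed signal of the 6 was 617 and 633 against 531 to 744 on the other ICR arrays. Their part in the values of Slc2a4 was not tested.

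The remaining members differed little. Igf1 had log2 signals of 6.90 and 6.75 with streptozotocin and 6.46 to 7.17 on the other ICR arrays, a difference of -0.05 with a 95% interval of -0.71 to 0.60. The intervals of the differences were -0.33 to 0.18 for the receptor Igf1r, -0.15 to 0.48 for the adaptor Irs1, -0.27 to 0.18 for Irs2, and -0.22 to 0.19 for Ide. For these 5 genes the groups overlapped and the intervals held no 2-fold difference.

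**Figure D3:**
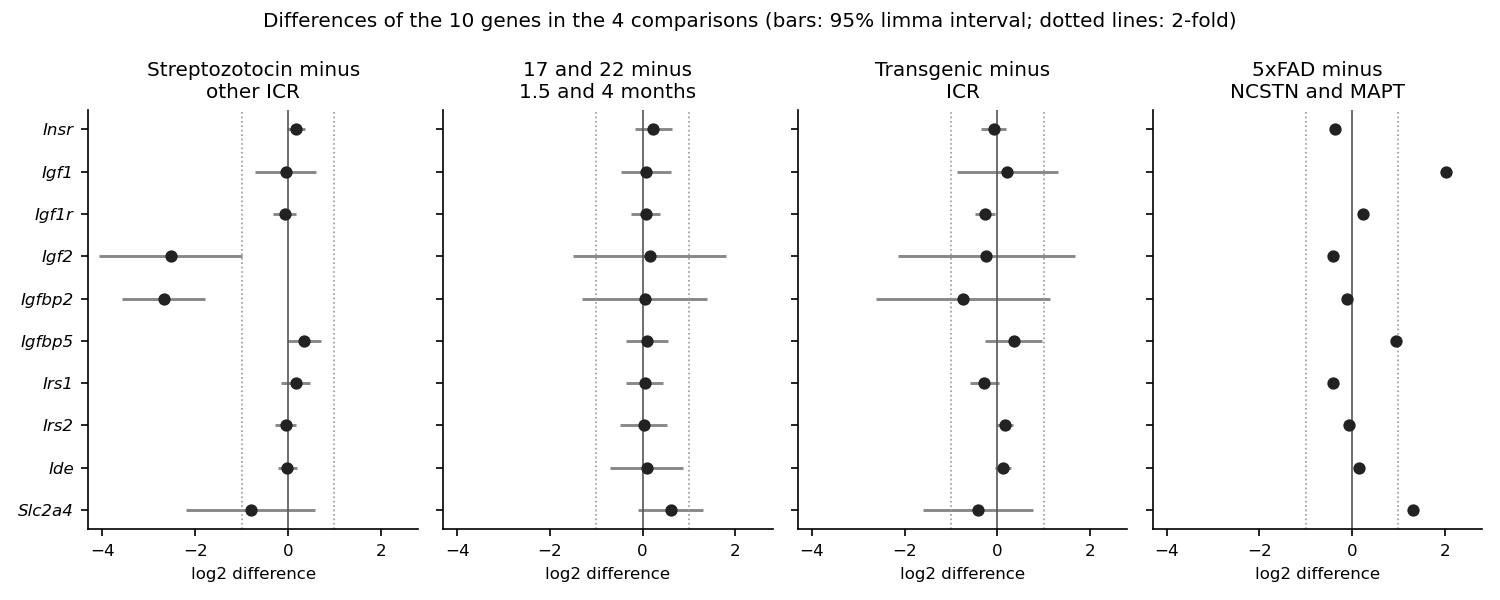
Log2 difference of the group means (horizontal axis) of the 10 genes (vertical axis) in the 4 comparisons, with 95% limma intervals where a test was run. The intervals of Igf2, Igfbp2 (streptozotocin) and Igf1r (transgenic) exclude 0 before adjustment for all genes tested, and the 5×FAD panel has no intervals because it sets 1 array against 2.

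The pathway list held 68 further genes, all of which were measured. Set against the other ICR arrays, 2 of them passed the test lower with streptozotocin, Ins1 and Ins2, and none higher, where 0.657% of all genes passed lower and 0.117% higher. The median difference of the 68 was 0.01 against 0.02 over all genes. The largest increases were in Igfbp1, a binding protein, at 1.04 (adjusted p of 0.662), Lnpep, an insulin-regulated aminopeptidase that travels with GLUT4, at 0.51 (0.351), and Ddit4, an inhibitor of mTOR, at 0.39 (0.471). Igfbp1 was well above background on 1 of the 5 arrays only, and its difference was 0.11 with normexp. Of the 15 genes of the PI3K and AKT arm, 8 were higher without overlap with streptozotocin, where 20.8% of all genes were, among them the regulatory subunit gene Pik3r1 at 0.37. None of the 15 was lower without overlap, and none passed the test. Markers of cortex were also higher on the streptozotocin arrays, 5 of 6 without overlap at a median of 0.65, with a summed signal of 4160 and 4782 against 3262 to 3750 on the other ICR arrays, and their part in these values was not tested. Insrr, the insulin receptor-related receptor, had log2 signals of 4.67 and 7.08 with streptozotocin, 9.28 and 8.42 with Aβ, and 6.33 with scopolamine, and at -2.14 (adjusted p of 0.501) its groups overlapped. The 15 genes of the PI3K and AKT arm had a median difference of 0.16 with streptozotocin, against 0.02 over all genes. For these 15 genes the deposited matrix gave 0.31, where the median of all genes was 0.23. Their count of 8 higher without overlap was between 6 and 10 under the alternatives.

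**Figure D4:**
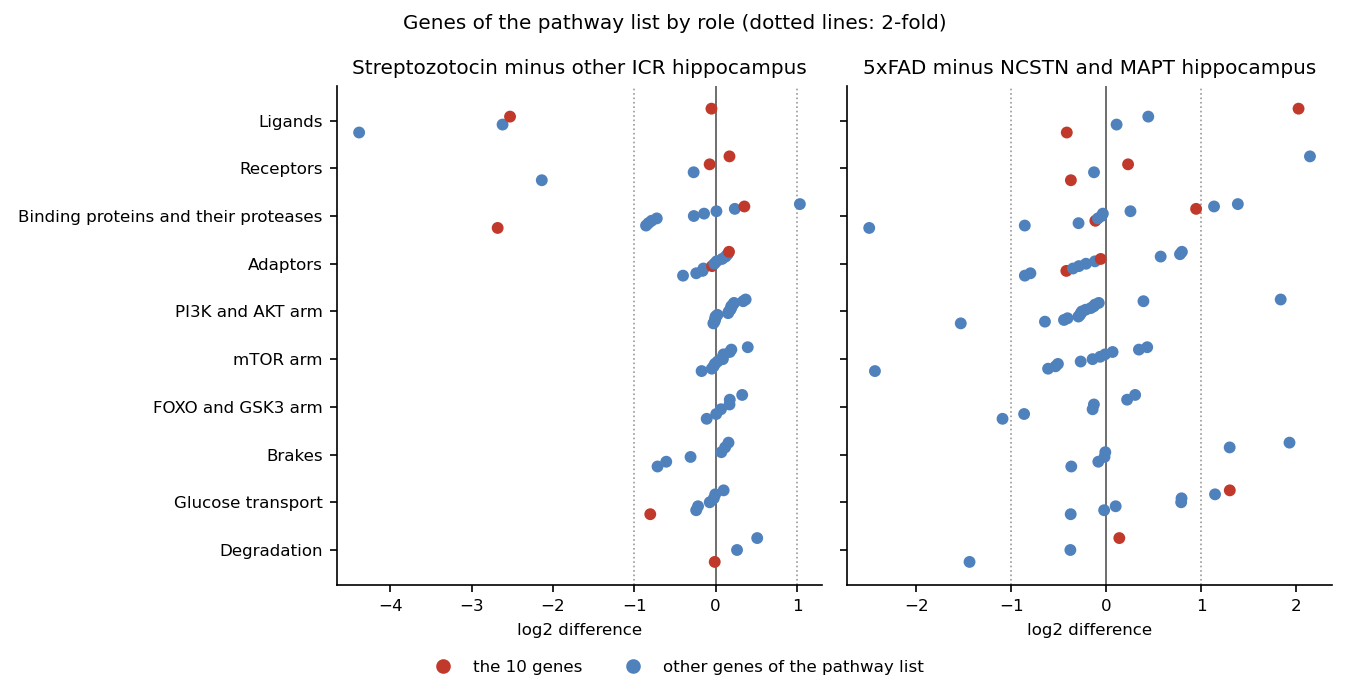
Log2 difference (horizontal axis) of each of the 78 pathway genes by role (vertical axis), red for the 10 genes and blue for the 68 others, in the streptozotocin and the 5×FAD comparison. With streptozotocin the widest differences were in ligands, receptors, and binding proteins, with Ins1 at -4.38, and on the 5×FAD array they also reached the PI3K, mTOR, and brake groups.

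The second comparison set the 5×FAD array against the mean of the NCSTN and MAPT arrays. The 5×FAD mice were 6 months old and the NCSTN and MAPT mice 10 and 12 months, and the 5×FAD mice came from another supplier. Transgene, line, age, supplier, and any array batch therefore cannot be told apart. Between 5×FAD and NCSTN 11.7% of all genes were at least 2-fold apart, and between 5×FAD and MAPT 11.5%. Between NCSTN and MAPT it was 3.99%. With 1 array on a side no test was run, and differences of at least 2-fold are described. Of the 10 genes 2 were at least 2-fold higher, Igf1 and Slc2a4, and none at least 2-fold lower, where 6.05% and 4.7% of all genes were. Igf1 had a log2 signal of 8.42 in 5×FAD, 6.42 in NCSTN, and 6.37 in MAPT. It was 4.08-fold higher in 5×FAD than in the mean of the other 2, and the 5×FAD array was the highest of all 12. The 4 probes of Igf1 did not agree in size. They gave 9.25-fold, 8.27-fold, 2.31-fold, and 1.57-fold higher signal in 5×FAD. The difference of 2.03 on the log2 scale was 1.21 by the brightest probe alone and 1.44 with normexp.

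**Figure D5:**
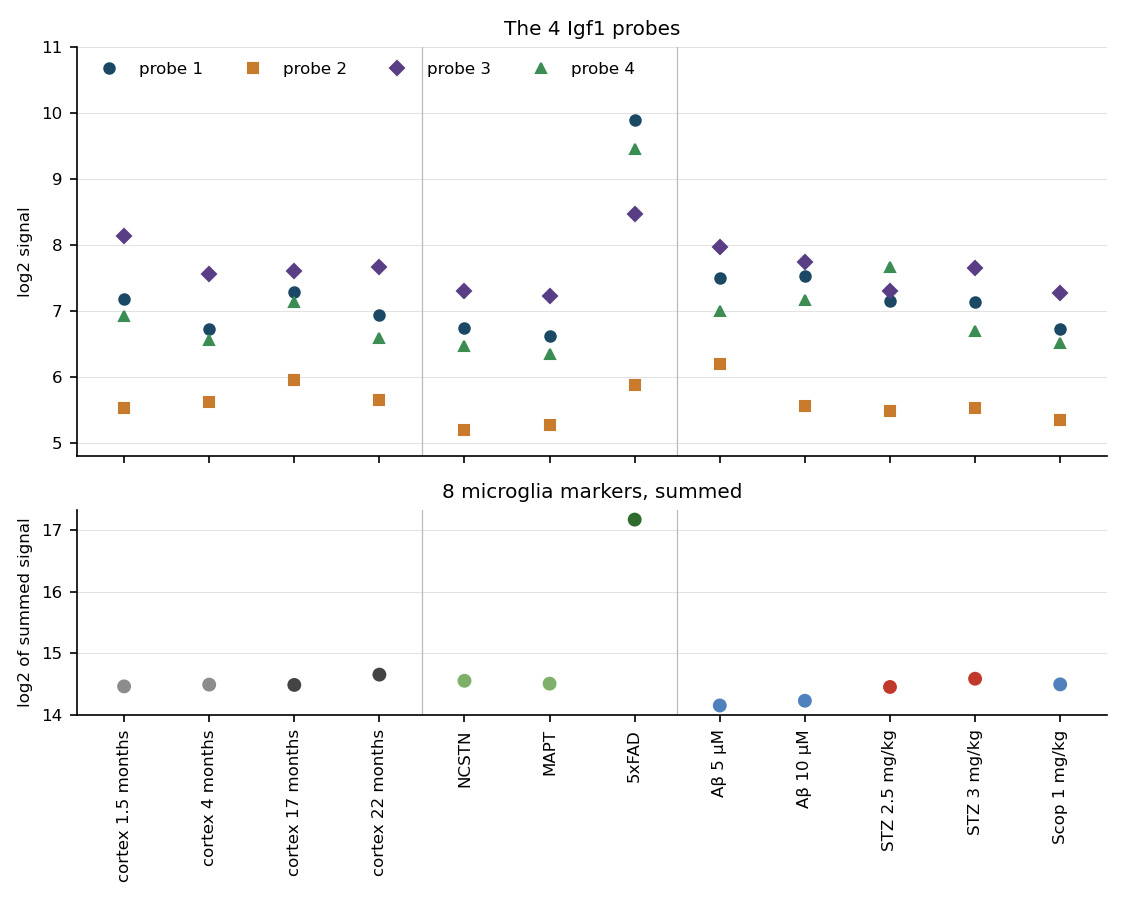
Log2 signal (vertical axis) of each of the 4 Igf1 probes (upper panel) and log2 of the summed signal of 8 microglia markers (lower panel) on the 12 arrays. All 4 probes were higher in 5×FAD than in NCSTN and MAPT, by 1.57-fold to 9.25-fold, and the microglia markers were highest on the 5×FAD array.

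Markers of microglia were also higher on the 5×FAD array. All 8 measured microglia markers were at least 2-fold higher in 5×FAD than in the mean of NCSTN and MAPT, with a summed signal of 147778 against 23228 and 23988, and 18157 to 25720 on the 11 arrays other than 5×FAD. All 8 were well above background in 5×FAD, with log2 signals of 13.41 for Cst7 and 11.25 for Itgax, 2 genes of activated microglia. Of the 6 astrocyte markers 2 were at least 2-fold higher, and their summed signal was 40724 against 25316 and 29303. Over all 12 arrays, Igf1 and the summed microglia signal had a Pearson's r of 0.82 but a rank correlation (Spearman) of -0.34. The part of microglia and astrocytes in the level of Igf1 was not tested.

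Slc2a4 had a log2 signal of 8.73 in 5×FAD, 7.88 in NCSTN, and 6.97 in MAPT, 2.47-fold above the mean of the other 2. The difference was 1.30, and 0.85 against NCSTN alone, so it rested in part on the low MAPT array. That array also had the pituitary transcript Prl, whose bearing on Slc2a4 was not tested. Igfbp5 had 12.94, 11.76, and 12.24, a 1.93-fold difference that passed 2-fold without MAPT (1.19 on the log2 scale). The other 7 genes differed by at most 0.42 on the log2 scale. Irs1, Igf2, and Insr were lower in 5×FAD by 0.42, 0.41, and 0.37, with Irs1 at 7.86 against 8.26 and 8.30, and Insr at 6.95 against 7.35 and 7.29. The 2 probes of Irs1 differed here, at -0.82 and -0.02. Igf1r was at 11.25 against 10.96 and 11.07.

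Of the other 68 pathway genes, 7 were at least 2-fold higher in 5×FAD and 5 at least 2-fold lower, where 6.05% and 4.7% of all genes were. The largest increases were 4.43-fold for Insrr, with log2 signals of 6.73 in 5×FAD, 4.98 in NCSTN, and 4.17 in MAPT, and 3.82-fold for Socs3, an inhibitor of cytokine and insulin receptor signalling, next to Igf1 itself. With normexp the log2 difference of Insrr was 0.75 in place of 2.15, under 2-fold. The largest decreases were 5.64-fold for the binding protein gene Igfbp4, 5.41-fold for Ddit4, and 2.89-fold for Pik3ca, a catalytic subunit of PI3K, and that of Igfbp4 was -1.68 on the log2 scale with normexp. Inpp5d, a phosphatase of the PI3K product that is typical of microglia, was higher by 1.84 on the log2 scale. The 15 genes of the PI3K and AKT arm had a median difference of -0.25 against -0.05 over all genes. The 6 markers of cortex had a median difference of -0.66, with a summed signal of 2590 in 5×FAD against 4003 and 4508 in NCSTN and MAPT, and their part in these values was not tested.

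In the comparison of transgenic with ICR hippocampus, no member passed an adjusted p of 0.05 in limma, against 8.43% of all genes, and 1 of the 10 had an unadjusted p under 0.05, against 27.8% of all genes. That gene was Igf1r, with log2 signals of 10.96 to 11.25 on the 3 transgenic arrays and 11.26 to 11.48 on the 5 ICR arrays. The groups did not overlap, although the 5×FAD and the scopolamine array were almost level, and the difference was -0.26 (SE 0.09, adjusted p of 0.124). Without the 5×FAD array it was -0.34 with an adjusted p of 0.0437. Irs2 had log2 signals of 13.22 to 13.33 on the transgenic arrays and 13.02 to 13.21 on the ICR arrays, a difference of 0.16 (adjusted p of 0.225). Ide had 9.90 to 10.05 against 9.74 to 9.88, a difference of 0.13 (adjusted p of 0.300). Without overlap, 2 of the 10 genes were higher and 1 lower, against 8.98% and 13.7% of all genes. Irs1 had a difference of -0.28 (adjusted p of 0.216) with overlapping groups. The groups also overlapped for Igfbp2 at -0.74, Slc2a4 at -0.42, Igfbp5 at 0.35, Igf2 at -0.24, Igf1 at 0.21, and Insr at -0.08. The sign of Igf1 turned without 5×FAD (-0.46), that of Igf2 without 5 μM of Aβ (0.14), that of Slc2a4 without MAPT (0.02), and that of Insr with 75th percentile scaling (0.06). None of the 10 differed 2-fold, where 3.42% of all genes were at least 2-fold higher and 3.17% lower. Strain, sex, age, transgene, treatment, and any array batch cannot be told apart in these values.

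Among the 68 other pathway genes, 2 passed the test, both lower on the transgenic arrays, among them Tsc2, an inhibitor of mTOR, where 4.61% of all genes passed lower and 3.82% higher. Tsc2 was lower by 0.38 (SE 0.08, adjusted p of 0.0346), and its call was lost with 7 of the 8 arrays left out in turn and with 75th percentile scaling (0.176) or normexp (0.0643). In the PI3K and AKT arm 7 of the 15 genes were lower without overlap, where 13.7% of all genes were, and none higher, at a median of -0.21 against -0.05 over all genes. The largest increases were in Inpp5d at 0.54 (adjusted p of 0.442), which turned to -0.08 without 5×FAD, the adaptor Gab1 at 0.43 (0.211), and Mtor at 0.39 (0.141, and 0.00503 without 5×FAD). The largest decreases were in Insrr at -1.86 (0.301), Ins1 at -1.24 (0.564), and Stc2, an inhibitor of the protease that cleaves IGFBP4, at -0.89 (0.0927). With normexp Insrr was at -1.001 and Stc2 at -0.21.

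In cortex, the 2 older ages were set against the 2 younger ones. No gene of the array passed an adjusted p of 0.05 in limma, and 1135 genes (5.78%) had an unadjusted p under 0.05, among them none of the 10. Slc2a4 had log2 signals of 7.03, 6.65, 7.66, and 7.22 at 1.5, 4, 17, and 22 months. Both older ages lay above both younger ones, and the difference was 0.60 (SE 0.24, adjusted p of 0.858). Within each pair it fell with age, by 0.44 in the older pair and by 0.38 in the younger one. Insr was the other member without overlap, with log2 signals of 7.22, 7.29, 7.62, and 7.36 and a difference of 0.23 (adjusted p of 0.862). By its brightest probe the groups overlapped, with 8.26 at 22 months against 8.44 at 4 months, and by its other probes they did not. Higher without overlap were 2 of the 10 genes, against 20.1% of all genes, and lower none, against 15.1%. None differed 2-fold, where 1.93% of all genes were at least 2-fold higher and 1.58% lower.

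Igf2 and Igfbp2 followed the same order over the 4 ages. Igf2 had log2 signals of 8.33, 7.72, 8.85, and 7.51 and Igfbp2 12.41, 11.67, 12.55, and 11.62 at 1.5, 4, 17, and 22 months, so that both were highest at 17 months and lowest at 22 months. The summed signal of fibroblast markers was 12242 and 20212 at the younger ages and 11758 and 17217 at the older ones, with 1.5 months the highest and 22 months the lowest. The choroid plexus signal was 50781 at 17 months. Ide had log2 signals of 10.04, 9.94, 9.75, and 10.41, the highest level of this gene on any array being that at 22 months. Differences of the means of the 8 members other than Slc2a4 and Insr were between 0.02 and 0.15, all 8 overlapped, and each of the 8 changed sign with at least 1 of the arrays left out. Of the 68 other pathway genes none passed the test. Among genes well above background on at least 1 array of the brighter side, the largest increases were in the adaptor Grb10, an inhibitor of both receptors, at 0.64 (adjusted p of 0.690) and the transcription factor gene Foxo3 at 0.64 (0.673), and the largest decreases in the phosphatase gene Inppl1 at -0.44 (0.862), Trib3, a pseudokinase that binds AKT, at -0.43 (0.862), and the adaptor Grb14 at -0.36 (0.858).

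The genes whose levels ran most like those of the members were sought among 14016 genes well above background on every array, by Pearson's r over the 12 arrays after subtraction of the 3 stratum means. For Igf2 they were Pawr (0.97), Igfbp2 (0.97), and Tinagl1 (0.96), and for Igfbp2 they were Nid2, Trpv4, and Csrp2 (0.98 each). For Igf1 they were Tfcp2l1 (0.98), Polm (0.97), and Gpsm3 (0.96), for Igfbp5 Mertk (0.94) and Tnfrsf13b (0.94), and for Slc2a4 Lgals1 (0.96), Tnfrsf1a (0.95), and Crip1 (0.95). The receptor Insr had Khsrp, Jmy, and Olfr97 (0.98, 0.98, and 0.97) and Igf1r had Slc50a1, Qsox1, and Zfp212 (0.93, 0.92, and 0.89). Irs1 had Klk1b21, Hivep1, and Gm12298 (0.96, 0.95, and 0.95), Irs2 had Dapk1, Tafa1, and Dntt (0.88, 0.85, and 0.84), and Ide had Tprgl and Exoc7 (0.94 and 0.93). These are the highest of many correlations over 12 arrays, and those of Igf1 rest largely on the 5×FAD array. Igfbp2 was the only member among the 3 nearest genes of another member.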

How the data were processed

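The authors deposited scanner intensity values of Agilent Mouse Whole Genome 44K arrays for each of the 12 samples, not normalized between arrays, and a series matrix of processed intensity values. Their methods state a filter of 1.4-fold over local background and quantile normalization. The version of the Feature Extraction software is not given in the sources used here. The files carry no slide or scan entries, so array batches could not be examined.

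The deposited intensities (processed signal) were put on the log2 scale without control spots and outlier spots (110 to 234 per array), spots of a probe were averaged, probes 1.4-fold above local background on all 12 arrays were kept (36520 of 39429), quantile normalized over 12 arrays, and averaged per gene. On dark corner spots the foreground was already 1.4 to 2.04 times the background, so detection was read from the scanner's flag, which 63.5% to 75.8% of probes passed. No spot was saturated. Accessions gave 1 symbol for 69.8% of probes through RefSeq GRCm38.p6, and promoter windows are from the same source. With 1 array per condition, precision is limited by how few arrays each group holds.

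Groups were compared with limma 3.58.1 (R 4.3.3) with Benjamini-Hochberg adjustment over 19648 genes, in Python 3.11.15 for summaries. The fit was tested on simulated data. The members, lists, and tests were chosen with earlier results of these data known. Named were all 10 members, pathway genes past an adjusted p of 0.05 or with the 3 largest differences in each direction, the 3 nearest genes by correlation, 3 sex-linked genes, and defining markers. Some genes that this rule names are not reported here. Pik3r1 and Insrr with streptozotocin and Inpp5d in 5×FAD were chosen after their values were seen.

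Alternatives were 75th percentile scaling, the matrix, normexp with an offset of 50 (on median rather than mean signals, which the files lack), other filters, the brightest probe, quantile normalization over the compared arrays, each array left out, a spread shared by all arrays, and a line over age.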

Additional observations from a re-analysis of the deposited data

How the results depend on the processing

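With streptozotocin, 152 genes passed an adjusted p of 0.05 (23 higher and 129 lower). The count was 265 with normexp and 406 with the spread shared by all 12 arrays, and 0 to 135 with 1 array left out: 0 without scopolamine (2474 at an unadjusted p under 0.05), 11 without 10 μM of Aβ, 37 without 5 μM of Aβ, and 100 without 2.5 mg/kg of streptozotocin. Of the genes passed, 15.1% were higher, against 4.17% with 75th percentile scaling, 30.8% with the matrix, 55 of 100 without 2.5 mg/kg of streptozotocin, and 69 of 135 without 3 mg/kg. For transgenic against ICR hippocampus, 1656 genes passed (45.4% higher), 3370 with 75th percentile scaling (33.7% higher), 4407 with the shared spread, and 538 (without MAPT) to 3033 (without 5×FAD) with 1 array left out, and each of the 8 arrays moved it by over 1.5 times (816 without NCSTN, 665 and 1078 without 10 and 5 μM of Aβ, 737 and 1042 without 3 and 2.5 mg/kg of streptozotocin, 942 without scopolamine). In cortex 0 passed, 18 with the shared spread, and 0 with any 1 array left out. At least 2-fold apart in 5×FAD were 2112 genes, 616 with normexp, and 2254 to 2308 without NCSTN or MAPT.

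Of the members with streptozotocin, Igf1 turned to 0.267, Igf1r to 0.059, Irs2 to 0.0133, and Ide to 0.162 in the deposited matrix, whose median over all genes was 0.227. With 1 array left out the differences ranged from -0.259 to 0.0936 for Igf1, -0.107 to 0.0172 for Irs2, and -0.0586 to 0.0148 for Ide. Igfbp2 passed the threshold with the matrix (adjusted p of 0.0055), normexp (0.0118), the 2-fold filter (0.037), and the shared spread (0.0141), and its difference stayed between -3.12 and -2.24, that of Igf2 between -3.15 and -1.73. In cortex, Igf1 turned to -0.215 and Irs1 to -0.0819 by the brightest probe, Irs2 to -0.0111 with normexp, and Igf2 to -0.0897, Igfbp2 to -0.145, and Irs2 to -0.0272 with a line over age. With 1 cortex array left out the differences ranged from -0.0883 to 0.236 for Igf1, -0.0091 to 0.14 for Igf1r, -0.521 to 0.825 for Igf2, -0.425 to 0.508 for Igfbp2, -0.0739 to 0.262 for Igfbp5, -0.0634 to 0.159 for Irs1, -0.148 to 0.196 for Irs2, and -0.247 to 0.415 for Ide. For transgenic against ICR, Insr turned to 0.0584 with 75th percentile scaling and 0.231 by the brightest probe, and leaving out 1 array gave -0.158 to 0.043 for Insr, -0.461 to 0.567 for Igf1, -0.774 to 0.142 for Igf2, -0.858 to 0.0197 for Slc2a4, and -0.0761 to 0.868 for Inpp5d. In 5×FAD, Slc2a4 was at 0.951 and Insrr at 0.75 with normexp, under 2-fold. The cause of these changes was not tested.

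The columns of the deposited matrix, on a linear scale, had 3 distributions. The median intensity was 117 in each cortex column, NCSTN, and MAPT, 134 in 5×FAD, and 157 or 158 in the ICR columns, which held 34796 to 38830 of 39429 probes. The matrix was therefore not run for transgenic against ICR arrays, and its values for 5×FAD cross separately normalized columns. The single 5×FAD array could not be left out of its own comparison. No paired analysis was possible because each condition had 1 array. Median differences with streptozotocin were -0.15 over 7 endothelial and 0.11 over 8 neuronal markers, against 0.02 over all genes.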
